A study of Mus musculus with 12 samples.

Results

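The immunoglobulin constant genes and the kappa light-chain variable genes were examined in colon tumours and tumour-adjacent colon epithelium of mice. The set comprised the 13 genes annotated as immunoglobulin constant genes and the 100 annotated immunoglobulin variable genes of the Igkv family, 113 of 48448 genes in all. Membership was set by annotation, with earlier results of these data known. The 12 libraries came from C57BL/6 mice of a colitis-associated cancer model and formed 4 groups of 3: adjacent tissue and tumours of Synbindinflox mice (flox), and adjacent tissue and tumours of SynbindinΔIEC mice (ΔIEC), a name that conventionally denotes deletion in intestinal epithelial cells. The series title speaks of scraped epithelium and the protocol of dissected tumours and adjacent tissue. The labels gave neither the Cre driver, the agents of the cancer model, nor the age of the mice, and they did not say whether replicates came from separate mice, so p-values measured the spread between these samples. Libraries are named below by genotype (F for flox, D for ΔIEC), tissue (A for adjacent, T for tumour) and replicate number. In addition to its title, each library carried a code, and 5 codes were shared by an adjacent and a tumour library (FA1 and FT1, FA2 and FT2, FA3 and FT3, DA2 and DT2, DA3 and DT3). The labels did not say what the code stood for.

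Antibodies pair a heavy chain, whose constant gene sets the isotype, with a kappa or lambda light chain. A B cell joins 1 variable gene to a joining segment in each chain and passes that choice to its descendants, so the variable genes in a tissue's RNA reflect which clones are present. Plasma cells, which transcribe immunoglobulin genes at very high levels, lie in the lamina propria under the colon epithelium and mostly make dimeric IgA, which the epithelium carries into the lumen through the receptor encoded by Pigr. Epithelial cells do not rearrange these genes. In such bulk samples fewer cells of a type and less RNA per cell cannot be told apart.

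Values were FPKM (fragments scaled by transcript length and by the mapped fragments of the library), summed over the transcripts of each gene. They carry no read counts, so the depth of each library is unknown. Summed over all genes they ranged from 503959 to 770556 per library. Trappc4, which encodes Synbindin, had a mean of 17.04 ± 0.285 FPKM (SD, n = 3 here and in each group) in the adjacent tissue of flox mice and 11.1 ± 1.297 in that of ΔIEC mice. In tumours it was 19.0 ± 1.73 and 11.3 ± 1.39, with every ΔIEC library below every flox library. Epithelial marker genes were abundant in all libraries (9 genes summing to 4107 to 9931 FPKM), and the summed levels of 8 macrophage and 9 fibroblast and smooth muscle genes varied more widely, from 28.5 to 200.6 and from 58.5 to 744 FPKM.

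The kappa variable genes lie on chromosome 6 between positions 67555497 and 70704177 (GRCm38), before the single kappa constant gene Igkc (chr6:70726435-70726966, plus strand). A kappa variable gene typically has a leader exon and a variable exon. The 3 genes that led the signal across libraries were Igkv1-110 at chr6:68270485-68271267 (plus strand), Igkv1-117 at chr6:68121046-68121827 (plus strand), Igkv10-96 at chr6:68631963-68632442 (minus strand). Their last 72 coding bases are shown because the final stretch, in capitals, follows the last in-frame cysteine codon and opens the third complementarity-determining region, the loop that differs most between antibodies.
Igkv1-110: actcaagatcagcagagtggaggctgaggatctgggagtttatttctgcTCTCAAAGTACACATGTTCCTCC
Igkv1-117: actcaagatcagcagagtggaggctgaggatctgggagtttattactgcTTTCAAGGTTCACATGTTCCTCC
Igkv10-96: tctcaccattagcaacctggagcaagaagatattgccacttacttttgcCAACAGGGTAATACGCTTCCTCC
Igkv1-110 and Igkv1-117 were 97.2% identical over their coding sequences, and reads from one could be assigned to the other. Over the 100 genes the median identity to the nearest other Igkv gene was 94.3%, and 46 genes had a neighbour at 95% or more, so values of single Igkv genes carry an assignment uncertainty that was not measured here.

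A further 5 genes were among the 3 highest in a single library each and were low in most others: Igkv15-103 at chr6:68437440-68437925 (plus strand), Igkv4-55 at chr6:69607275-69607828 (minus strand), Igkv4-57 at chr6:69575975-69576500 (minus strand), Igkv4-91 at chr6:68768555-68769103 (minus strand), Igkv14-100 at chr6:68519012-68519477 (plus strand).
Igkv15-103: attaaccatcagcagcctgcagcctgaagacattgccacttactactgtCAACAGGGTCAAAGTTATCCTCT
Igkv4-55: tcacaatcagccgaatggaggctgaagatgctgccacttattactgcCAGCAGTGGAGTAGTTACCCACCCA
Igkv4-57: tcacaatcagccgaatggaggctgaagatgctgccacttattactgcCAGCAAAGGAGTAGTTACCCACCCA
Igkv4-91: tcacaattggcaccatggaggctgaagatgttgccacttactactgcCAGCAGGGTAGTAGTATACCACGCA
Igkv14-100: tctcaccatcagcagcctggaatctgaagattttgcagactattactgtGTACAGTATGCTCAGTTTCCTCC
The remaining genes that reached the top 3 of a library, Igkv5-43 and Igkv6-15, did so once each. The last 2 sequences belong to the genes that passed the differential test: Igkv14-126 at chr6:67896172-67896642 (plus strand), Igkv3-10 at chr6:70572633-70573230 (plus strand).
Igkv14-126: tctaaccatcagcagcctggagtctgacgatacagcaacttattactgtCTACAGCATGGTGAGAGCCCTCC
Igkv3-10: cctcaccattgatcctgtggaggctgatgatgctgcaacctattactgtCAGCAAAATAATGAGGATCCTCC
Igkv3-10 had a nearest neighbour at 98.3% identity (Igkv3-5), whereas the nearest to Igkv14-126 was at 91.5% (Igkv14-111).

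Igkc was the most abundant member in every library. It measured 3133, 1917 and 2230 FPKM in FA1, FA2 and FA3, 1990, 13234 and 10381 in DA1, DA2 and DA3, 2509, 2596 and 845 in FT1, FT2 and FT3, and 1310, 2140 and 8783 in DT1, DT2 and DT3. DA2, DA3 and DT3 stood above all other libraries, DA1 lay within the range of the flox adjacent libraries, and the groups overlapped. Igha, the IgA heavy chain (chr12:113254830-113260236, minus strand), followed the same order at the top, with 5871 FPKM in DA2, 3520 in DA3 and 2885 in DT3 against 268 to 1051 in the other 9. Jchain, which links IgA dimers, was likewise highest in these libraries (930, 690 and 568 FPKM) and lay between 57.1 and 233 elsewhere. The ratio of Igkc to Jchain ranged only from 11.3 to 16.4, and summed Igkv signal was 0.476 to 0.653 of Igkc in every library.

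**Figure D1:**
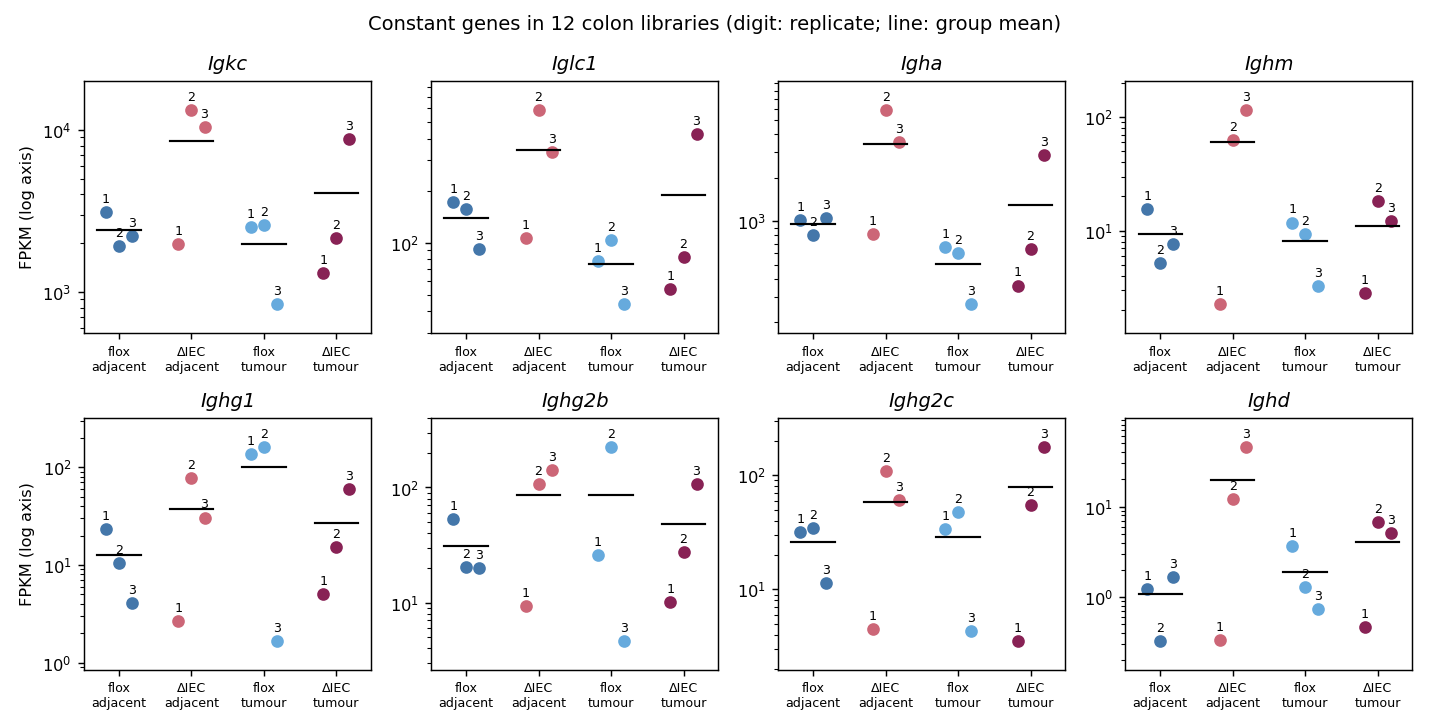
FPKM of 8 constant genes on a log axis in the 12 libraries, by group; each point is a library labelled with its replicate number and each line is the group mean of 3. For Igkc and Igha, DA2, DA3 and DT3 lie above all other libraries while DA1 lies near the flox adjacent points.

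Comparing tumours with adjacent tissue of flox mice, none of the 11 constant genes and none of the 78 Igkv genes that passed the filter on low values was called (limma, Benjamini-Hochberg adjusted p under 0.05), with none at an unadjusted p under 0.05, where 36.3% of all 16970 tested genes were called (16.6% higher and 19.7% lower in tumours). Members that did not pass were Ighe, Iglc4 and 22 Igkv genes. The median difference, on the log2(FPKM + 1) scale as all differences below, was -0.43 for constant and -0.21 for Igkv genes against -0.01 for all genes. This direction depended on scaling. When every library was brought to the same sum over protein-coding genes, the medians were 0.02 and 0.06, the median of all genes moved to 0.36, and of all genes 38.5% were called higher and 10% lower. Igkc itself differed by -0.43 (SE 0.84, limma adjusted p = 0.72), and by 0.10 after quantile normalisation.

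In ΔIEC mice, 0 of 11 constant genes (none at an unadjusted p under 0.05) and 2 of 78 Igkv genes (5 at an unadjusted p under 0.05) were called between tumours and adjacent tissue, both lower, where 29.4% of all genes were called (13.9% higher and 15.5% lower; 26% and 8.54% when scaled to the protein-coding sum). The medians were -1.16 and -0.77, with 10 of 11 constant and 71 of 78 Igkv genes lower in tumours. Igkv14-126 measured 4.87, 11.4 and 2.92 FPKM in DA1, DA2 and DA3 and 1.11, 0.710 and 1.52 in DT1, DT2 and DT3, without overlap. It fell by 1.66 (SE 0.35, limma adjusted p = 0.00751). This gene passed the filter on low values only because of the ΔIEC adjacent libraries, the group where it was high. Its tumour values lay near the pseudocount of 1. The call, in the main fit and in all 20 alternatives that could test it, is therefore not read as support for a difference. Igkv3-10 measured 10.04, 43.7 and 30.6 FPKM in the ΔIEC adjacent and 2.48, 0.359 and 13.6 in the ΔIEC tumour libraries, and the groups overlapped. It fell by 2.61 (SE 0.84, limma adjusted p = 0.0418), and 12 of 21 alternatives put it above the threshold, with adjusted p from 0.00767 to 0.132. Without DA1, 4 constant genes (Ighm, Ighd, Ighg3 and Iglc2) and 6 Igkv genes were called, where 19.9% of all genes were. Without DT3, 2 constant genes (Igha and Iglc1) and 6 Igkv genes were called, where 27.9% of all genes were. Igkv14-126 was among the 6 in both fits.

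Between genotypes no member was called in adjacent tissue, in tumours or in the interaction of genotype and tissue, and limma called 0% of all tested genes in each. In adjacent tissue 0 constant and 8 of 78 Igkv genes had an unadjusted p under 0.05, against 4.14% of all genes. In tumours the counts were 0 and 1 against 1.87% of all genes, and in the interaction 0 and 2 against 2.64%, both near the general share. In adjacent tissue 76 of 78 Igkv genes and 10 of 11 constant genes were higher in ΔIEC than in flox libraries, with medians of 1.04 and 1.02 against -0.03 for all genes. Genes transcribed by the same cells are not independent observations. The 78 include genes such as Igkv14-126 and Igkv9-129, which passed the filter on low values only through ΔIEC libraries. The Igkv counts of 8 and 76 are therefore not read as support for a genotype difference. Igkc differed by 1.45 (SE 0.84, limma adjusted p = 0.93) and Igha by 1.43 (SE 0.83, adjusted p = 0.93). The higher values came from DA2 and DA3. Other cell type markers moved with them: the 8 macrophage genes summed to 148 and 156 FPKM in DA2 and DA3 against 28.5 in DA1 and 37.2 to 75.0 in flox adjacent tissue, and the 9 fibroblast and smooth muscle genes to 384 and 296 against 58.5 in DA1 and 61.2 to 278 in flox. The 9 epithelial genes summed to 5746 and 6730 FPKM against 7868 in DA1 and 7290 to 9931 in flox. Their part in the genotype difference was not tested. Without DA1, 1 constant gene (Iglc2) and 5 Igkv genes were called, where 1.76% of all genes were. The 5 included Igkv14-126, so this count is not read as support for a genotype difference. Igkv14-126 measured 0.363, 0.211 and 0.343 FPKM in FA1, FA2 and FA3, below all 3 ΔIEC adjacent libraries. It was under 1 FPKM in all 6 flox libraries and passed the filter on low values only through ΔIEC libraries, so its genotype difference is given with no test.

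IgA made up most of the heavy-chain signal in every library. The Igha share of summed heavy constant FPKM was 89.0%, 91.7% and 95.7% in FA1 to FA3, 97.6%, 93.9% and 89.8% in DA1 to DA3, 75.7%, 57.4% and 94.8% in FT1 to FT3, and 94.2%, 83.8% and 88.8% in DT1 to DT3. FT1 and FT2 had the lowest shares, and FT3 lay within the range of the adjacent libraries. The combined share of the IgG genes Ighg1, Ighg2b, Ighg2c and Ighg3 was 16.0% ± 14.2 (SD, n = 6) in tumours and 5.59% ± 2.73 (n = 6) in adjacent tissue, a difference that did not pass adjustment over the 15 tests of summary measures (exact permutation p = 0.065, two-sided, permuted within genotype; adjusted p = 0.5). The Igha share, 82.5% ± 14.2 against 93.0% ± 3.39 (n = 6 each), likewise did not (exact permutation p = 0.09, adjusted p = 0.5). Without FT2 the IgG share differed by 5.34 percentage points, against 10.4 with it, and the Igha share by -5.51, against -10.5.

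The 2 flox tumours with the most IgG differed in subclass. Ighg1, the IgG1 heavy chain, measured 136 FPKM in FT1 and 162 in FT2, above the 1.68 to 77.8 of the other 10 libraries. Ighg2b measured 226 FPKM in FT2 but only 25.8 in FT1. IgG2b alone was therefore 21.5% of heavy-chain signal in FT2 and 2.95% in FT1, while Ighg1 held 15.6% in FT1 and 15.4% in FT2. Ighg2c was highest in DT3, at 177 FPKM, where it made up 5.46%, and its largest share was 7.08% in DT2. Ighg1 differed by 1.81 (SE 1.65, limma adjusted p = 0.42) between flox tumours and adjacent tissue, with FT3 at 1.68 FPKM. The coding sequences of Ighg2b and Ighg2c were 85.9% identical and the other pairs of IgG genes 74.3% to 76.7%.

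**Figure D2:**
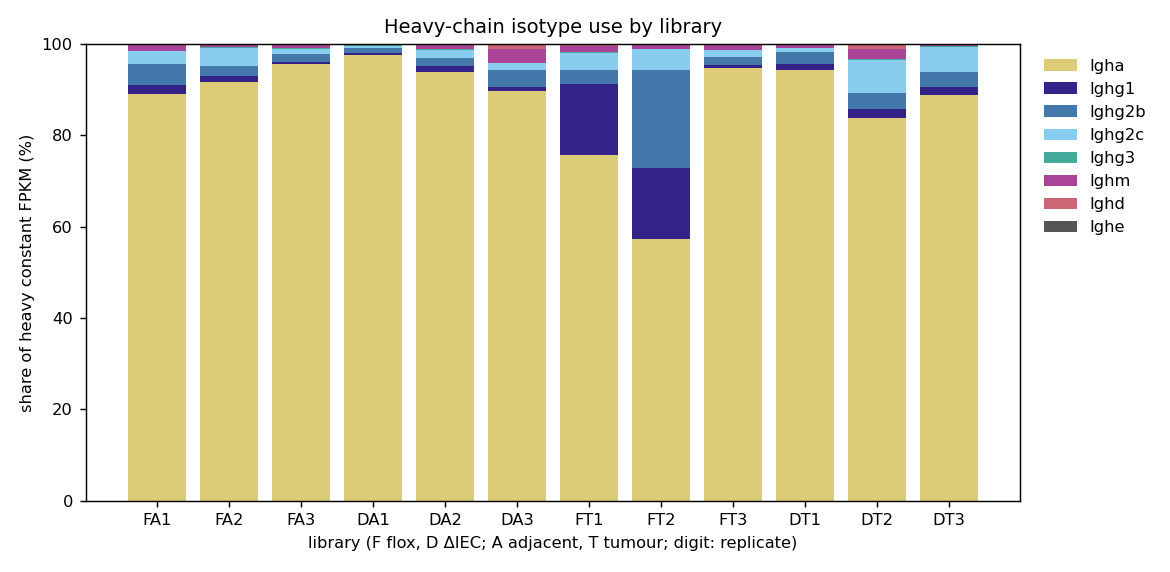
Share of summed heavy constant FPKM (%) held by each heavy constant gene in each of the 12 libraries, stacked to 100%. Igha fills most of every bar, and FT1 and FT2 show the largest Ighg1 shares (15.6% and 15.4%).

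Ighm (IgM, chr12:113418558-113422730, minus strand) and Ighd (IgD) were highest in DA2 and DA3, and DT3, the other library with high Igkc, was not among them. Ighm measured 62.7 FPKM in DA2 and 115 in DA3 against 2.26 to 18.3 in the other 10. Ighd measured 12.2 in DA2 and 45.8 in DA3 against 0.329 to 6.78. Both genes are made as a membrane receptor by resting B cells, and the choice between secreted and membrane transcripts is made at the 3′ end of the constant gene. The coding ends are shown because these bases, in capitals after 21 shared ones, are what separates the 2 forms in the table; stop codons are not included.
Igha secreted: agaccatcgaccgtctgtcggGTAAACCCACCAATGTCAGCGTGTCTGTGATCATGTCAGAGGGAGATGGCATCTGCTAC
Igha membrane: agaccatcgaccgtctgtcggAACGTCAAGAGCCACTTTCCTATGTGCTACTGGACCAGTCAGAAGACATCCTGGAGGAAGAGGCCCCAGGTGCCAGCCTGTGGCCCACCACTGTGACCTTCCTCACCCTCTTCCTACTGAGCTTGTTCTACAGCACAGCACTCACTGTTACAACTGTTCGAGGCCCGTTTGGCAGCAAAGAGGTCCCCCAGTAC
Ighm secreted: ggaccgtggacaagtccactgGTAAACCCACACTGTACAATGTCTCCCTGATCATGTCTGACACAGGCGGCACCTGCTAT
Ighm membrane: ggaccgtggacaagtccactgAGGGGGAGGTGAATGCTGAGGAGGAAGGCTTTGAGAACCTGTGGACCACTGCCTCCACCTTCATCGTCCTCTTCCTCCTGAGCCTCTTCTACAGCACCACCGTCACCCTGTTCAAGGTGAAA
The membrane form of Igha was 0.101% to 0.226% of its FPKM in all 12 libraries. The membrane form of Ighm ranged from 19.0% in FA1 to 99.9% in FT3. In DA3 it measured 83.9 FPKM against 31.6 for the secreted form, and in DT2 13.4 against 4.94. In DA2 both forms were near each other, at 30.5 and 32.2 FPKM. FT3 had only 3.28 FPKM of Ighm in all.

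**Figure D3:**
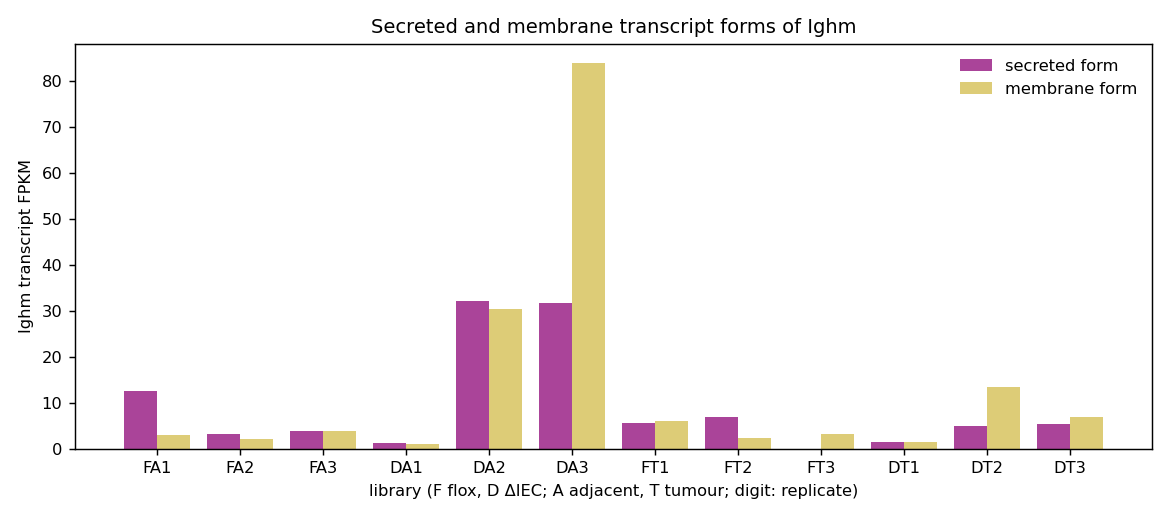
FPKM of the secreted and the membrane transcript form of Ighm in each library, on a linear axis from 0. The membrane form is highest in DA3 (83.9 FPKM), and DA2 has both forms at about equal height.

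Mature B cell genes were high in the same 2 libraries. Cr2, the complement receptor of follicular B cells, measured 9.96 FPKM in DA2 and 31.3 in DA3 against 0.126 to 5.17 elsewhere. The 20 mature B cell genes summed to 186 and 426 FPKM in the 2 highest ΔIEC adjacent libraries and to 70.9 in the lowest. They summed to 72.4 to 83.4 in flox adjacent tissue, 56.1 to 74.2 in flox tumours and 49.9 to 94.6 in ΔIEC tumours. Most of the lower adjacent sums was 1 gene, Blnk, which was not raised in DA2 or DA3. Blnk measured 51.5 to 60.3 FPKM in flox adjacent tissue, 54.2 in DA1, 39.5 in DA2 and 52.8 in DA3. The part of the mature B cells in the higher Igkc and Igha of DA2 and DA3 was not tested. None of the 20 was called between genotypes, where 0% of all genes were called (median difference 1.66 in adjacent tissue). Between tissues 1 was called lower in flox tumours (Blnk) and 2 in ΔIEC tumours (Spib and Blnk). Of all genes, 19.7% and 15.5% were called lower. The recombination genes Rag1, Rag2 and Dntt and the surrogate light-chain genes Igll1 and Vpreb1 stayed below 1 FPKM in all libraries.

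Lambda light chains were a small share. The lambda constant genes together held 4.19% to 10.6% of light constant FPKM, with the highest share in FA2. The share was 5.002% ± 0.558 (SD, n = 6) in tumours and 6.34% ± 2.14 (n = 6) in adjacent tissue (exact permutation p = 0.1, adjusted p = 0.5). Iglc1 measured 44.1 to 586 FPKM and was the highest lambda gene in every library. Iglc2 was highest in DA3, at 197 FPKM, against 4.73 to 89.5 elsewhere. Iglc2 and Iglc3 were 96.2% identical in coding sequence, so their separate values are uncertain.

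The Igkv signal was spread over many genes. Between 63 genes (FT3) and 96 genes (DA2) had a value above 0, and 55 did so in all 12 libraries, while 3 were at 0 throughout. FT3 also had the lowest summed Igkv FPKM (456) and DA2 the highest (7739), so these counts are not read as breadth of usage. Of the Igkv FPKM, 50% was reached with 6 to 10 genes and 90% with 31 to 41. The effective number of genes (inverse Simpson index, the number of equally used genes that would give the same concentration) was 18.01, 15.1 and 20.3 in FA1 to FA3, 27.6, 17.8 and 26.7 in DA1 to DA3, 15.7, 21.8 and 17.1 in FT1 to FT3, and 16.8, 19.1 and 20.1 in DT1 to DT3. DA1 and DA3 were the least concentrated. The mean was 18.4 ± 2.28 (SD, n = 6) in tumours and 20.9 ± 5.10 (n = 6) in adjacent tissue (exact permutation p = 0.27, adjusted p = 0.55), and the highest single-gene share lay between 8.31% in DA1 and 19.8% in FT1.

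Igkv1-110, Igkv1-117 and Igkv10-96 were among the 10 highest genes in all 12 libraries and together held 20.1% to 37.9% of Igkv FPKM. Igkv1-110 ranged from 3.10% in FT1 to 17.8% in DT1 and was the top gene in 6 libraries. Igkv10-96 reached 17.4% in FA1 and 19.8% in FT1. Igkv1-117 was highest in FA2, at 17.7%. The 10 genes of the Igkv1 family held 24.0% on average, the 26 of Igkv4 15.3%, and the 3 of Igkv10 11.4%. By position, the 34 genes farthest from Igkc held 51.8% ± 7.13 (SD over 12 libraries), the 33 in the middle 24.7% ± 6.996, and the 33 nearest 23.5% ± 5.51. The farthest 34 include the 3 leading genes, which alone held 29.4% on average.

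Other genes were high in 1 or a few libraries. Igkv14-100, whose sequence is given above, was the top gene of DA1 with 8.31%, and held 4.05% in DA3 and 2.01% in DT3 against at most 0.97% in the rest. Igkv4-91 held 9.31% in DT1 and at most 3.89% elsewhere. Igkv4-57 held 7.78% in DA2 and at most 2.38% elsewhere. Igkv4-55 held 9.53% in FT2 and 4.84% in FA2, which share a code, and at most 2.86% elsewhere. Igkv15-103 held 7.18% in FT1 and 4.596% in FA1, again of a shared code, and at most 3.85% elsewhere.

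**Figure D4:**
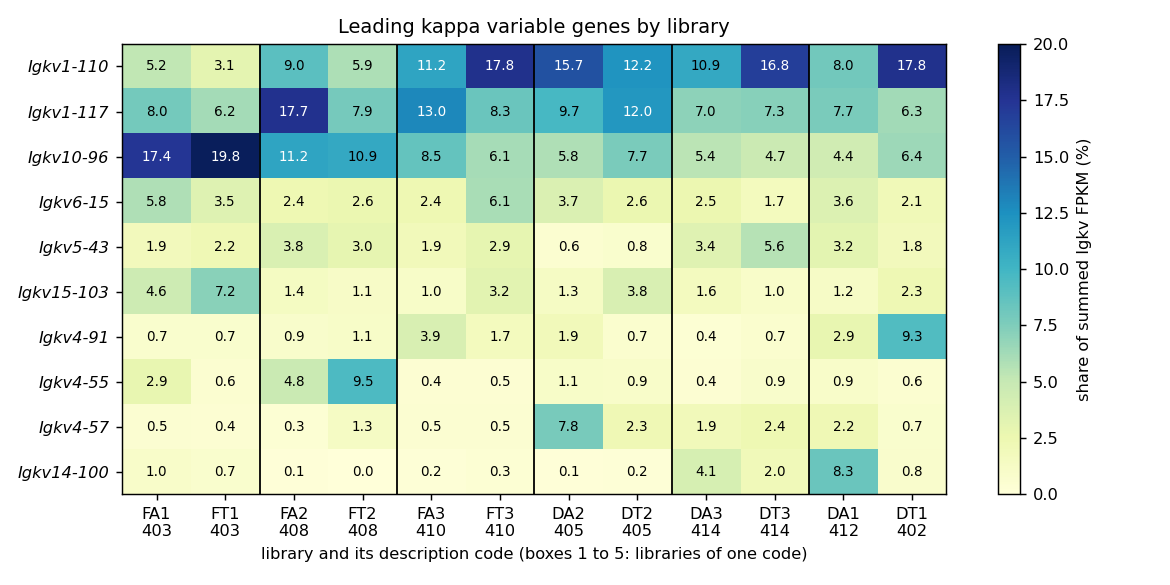
Share of summed Igkv FPKM (%) of the 10 genes that were among the 3 highest of any library, with libraries of the same code side by side and DA1 and DT1, which share none, at the right. The upper 3 rows range from 3.10% to 19.8%, and Igkv15-103 and Igkv4-55 each have their 2 highest shares in the libraries of one code.

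Libraries that shared a code also resembled each other over all Igkv genes. The overlap of 2 libraries was the sum over genes of the smaller of their shares. It was 76.8% for FA1 and FT1, 72.1% for FA2 and FT2, 71.4% for FA3 and FT3, 73.3% for DA2 and DT2 and 83.3% for DA3 and DT3. The 31 other pairs of an adjacent and a tumour library had 51.6% to 70.1% (median 59.7%), and the 12 pairs within a group 54.9% to 68.9%. For all 10 libraries with a shared code, the closest of the other 11 was the one of the same code. Without the 3 leading genes the same-code pairs had 66.5% to 82.5% against 47.7% to 64.5%, and the heavy-chain variable genes (Ighv) gave 72.9% to 78.8% against 46.6% to 66.1%, again with 10 of 10 closest libraries of the same code. Isotype shares did not follow the code: the closest library had the same code in 1 of 10, and FA2 and FT2 overlapped by 65.5%. These overlaps are descriptions with no test, and pairs share libraries.

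**Figure D5:**
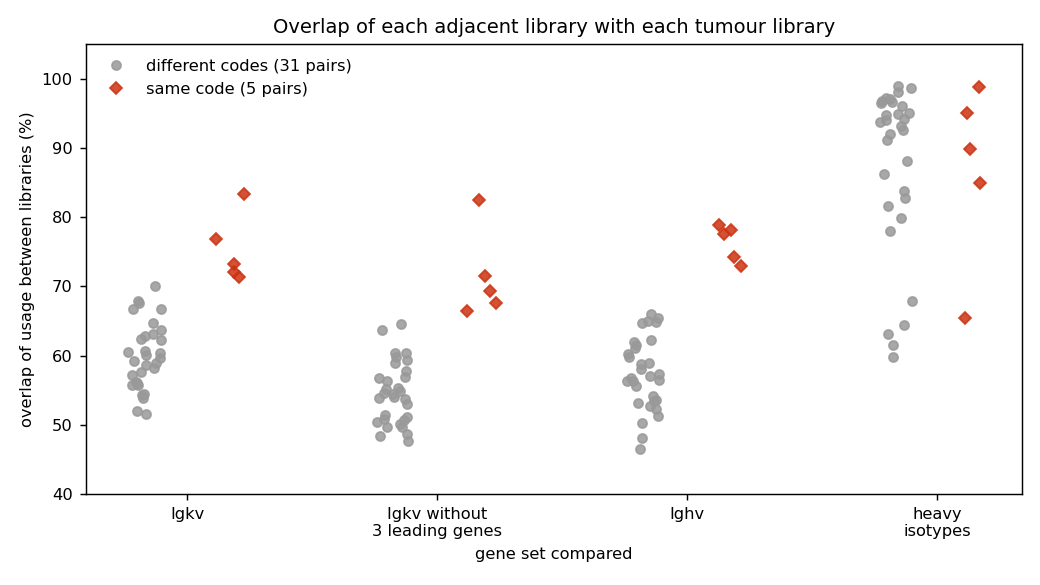
Overlap of usage (%) between each adjacent and each tumour library for Igkv genes, Igkv genes without the 3 leading ones, Ighv genes and heavy isotypes; diamonds are the 5 pairs of one code and circles the 31 pairs of different codes, spread sideways for visibility, on an axis that starts at 40%. For Igkv the diamonds (71.4% to 83.3%) lie above all circles (51.6% to 70.1%), and for isotypes they do not.

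Genes of antibody transport and plasma cell homing were read beside the immunoglobulin genes. Pigr measured 1647, 1643 and 1340 FPKM in FA1 to FA3 and 401, 302 and 389 in FT1 to FT3, and in ΔIEC libraries 1588, 1103 and 1778 in adjacent tissue and 268, 314 and 532 in tumours. Every tumour lay below every adjacent library. It fell by 2.09 (SE 0.26, limma adjusted p = 5.2e-04) in flox and by 2.04 (SE 0.26, adjusted p = 0.00118) in ΔIEC mice. Ccl28, an epithelial chemokine that draws IgA plasma cells, fell by 2.88 and 2.21 (limma adjusted p = 0.00425 and 0.0174; the ΔIEC call was lost in 4 of 21 alternatives), and Tnfsf13, which encodes the plasma cell survival factor APRIL, by 1.88 and 1.70 (adjusted p = 0.000691 and 0.00187). Both belong to the list of 16 IgA induction and plasma cell homing genes, of which 11 were tested. In flox tumours 1 rose and 4 fell (median -0.02, against 16.6% and 19.7% of all genes), and in ΔIEC tumours 0 rose and 2 fell (median -0.51, against 13.9% and 15.5%). The riser was Tgfb1, a cytokine gene of IgA switching, by 1.13 in flox (limma adjusted p = 0.044), a call lost in 11 of 21 alternatives. The Fc receptor gene Fcgr3 rose by 1.74 and 1.81 (adjusted p = 0.0121 and 0.013; the ΔIEC call was lost in 1 of 21 alternatives). Of 11 immunoglobulin transport and Fc receptor genes, 10 were tested, and 4 rose and 3 fell in flox (all genes 16.6% and 19.7%), 5 rose and 3 fell in ΔIEC tumours (all genes 13.9% and 15.5%).

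Of the 21 plasma cell and antibody secretion genes, 20 were tested. In flox tumours 1 rose and 4 fell (median -0.28), and in ΔIEC tumours 1 rose and 3 fell (median -0.77). The called share, 5 and 4 of 20, was below that of all genes (36.3% and 29.4%). The risers were Tent5c in flox, by 1.12 (limma adjusted p = 0.0389), and Sdc1, the plasma cell and epithelial surface protein CD138, in ΔIEC tumours, by 0.62 (adjusted p = 0.04). Each of these calls was lost in 9 of 21 alternatives. Edem1 and Ell2, also of this list, fell in both genotypes. In flox mice the falls were 0.71 and 0.77 (limma adjusted p = 0.00265 and 0.00132). The flox Edem1 call was lost when scaled to the protein-coding sum. In ΔIEC mice Edem1 and Ell2 fell by 0.83 and 0.75 (limma adjusted p = 0.00219 and 0.00253). These genes are also expressed by epithelium, as is Xbp1, the transcription factor of secretory cells, which fell by 0.63 in ΔIEC tumours (adjusted p = 0.0308; lost in 7 of 21 alternatives). Epithelial marker genes were lower too, 8 of 9 called in flox and 3 of 9 in ΔIEC tumours. Of all genes, 19.7% and 15.5% were called lower. The Krt8 call in flox was lost in 1 of 21 alternatives. In ΔIEC tumours the calls of Cldn3 and Krt20 were lost in 12 and 11 of 21. The part of the epithelial genes in the fall of Pigr and Ccl28 was not tested.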

How the data were processed

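RNA of 12 colon samples was sequenced from strand-specific TruSeq libraries, per the labels' protocols; the submitters' processing notes name FastQC, STAR 2.5, Cuffnorm and GRCm38, without their settings. The authors deposited one table of log2(FPKM + 1) per transcript. Its 123062 transcripts were matched by identifier to the GENCODE M21 annotation (GRCm38), 95.89% of them; values were returned to FPKM and summed per gene. FPKM divides by transcript length: immunoglobulin joining segments, which are very short, reached 0 to 123521 FPKM per library and were left out. Rearranged and mutated variable regions may map poorly; how the authors treated multiply mapped reads is not given in the sources used here.

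Genes with at least 1 FPKM in at least 3 libraries (16970, of them 89 members) were tested on log2(FPKM + 1) with limma 3.58.1 (R 4.3.3; trend, robust), all 4 groups in one fit, Benjamini-Hochberg adjusted within each contrast; the script was tested on simulated data. Summary measures were compared by exact permutation tests, two-sided, adjusted over 15 tests; 3 against 3 cannot go below 0.1. Members and gene lists were chosen with earlier results of these data known. Named genes are all constant genes, Igkv genes among the 3 highest of a library, the 5 called Igkv genes with the largest difference per contrast and direction, up to 4 called genes per list, and Trappc4; other genes named were chosen after their values were seen. Correlations of deviations over all tested genes between same-numbered libraries were -0.192 to 0.19, and -0.192 to 0.17 in the 5 pairs of one code. No pairing was therefore used in the main tests, although Igkv and Ighv usage was most alike within a code. Results with the code as block are given below. Alternatives varied pseudocount, filter, scaling, fit, transcript summary and the libraries included. Sequences come from the GENCODE M21 transcripts.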

Additional observations from a re-analysis of the deposited data

How the results depend on the processing

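With the replicate block by title number or by code, the ΔIEC comparison of tissues still called 2 Igkv genes and no other member was called in any contrast. In these limma fits the block by title number joined libraries of both genotypes, so it was no check of a pairing. Between same-code libraries the IgG share was higher in the tumour in 5 of 5 and the Igha share lower in 5 of 5 (exact sign-flip permutation p = 0.0625 each, the smallest that 5 pairs allow; adjusted p = 0.47 with the block by code). The sizes were uneven. The IgG difference was 0.300 percentage points between FA3 and FT3 and 33.9 between FA2 and FT2. The Igha difference was -0.865 and -34.3 in these pairs, and -0.997 between DA3 and DT3. Paired by title number within genotype, the IgG share gave an exact sign-flip permutation p = 0.03125 (adjusted p = 0.23). That pairing also joined DA1 and DT1, whose codes differ.

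Constant genes called in flox tumours against adjacent tissue were 1 when only the groups compared were fitted. Igkv genes called in ΔIEC tumours were 1 with pseudocount 0.1, with the filter at 5 FPKM, with protein-coding genes rescaled, and with only the groups compared. With protein-coding genes rescaled, 34.6% of all genes were called in that comparison. This share is not given here for the other fits named above. Igkc in flox tumours against adjacent tissue turned to 0.10 under quantile normalisation and 0.022 under protein-coding rescaling, and Ighg1 in ΔIEC tumours to 0.056 under that rescaling; the cause was not tested.

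Leaving out 1 library at a time gave these ranges. In ΔIEC tumours against adjacent tissue, constant genes called were 0 to 4 of 11 and Igkv genes called 1 to 6 of 78. Both counts were highest without DA1, where 19.9% of all genes were called. The Igkv count was equally high without DT3, where 27.9% of all genes were. Between genotypes in adjacent tissue the counts were 0 to 1 and 0 to 5, highest without DA1, where 1.76% of all genes were called. Igkv14-126 was among the Igkv genes in each of these highest counts, which are not read as support for a difference. Between genotypes, the difference in Igha share in adjacent tissue was -0.298 to 3.64 percentage points, and in tumours that in the effective number of Igkv genes -0.813 to 2.20, in lambda share -0.263 to 0.524 and in summed constant level -0.113 to 1.298 (log2). For single genes, Igkc was -0.076 to 1.296 between genotypes in tumours and -0.71 to 0.10 between flox tissues; Igha was -1.40 to 0.10 in the interaction; Ighg1 was -0.056 to 2.16 between genotypes in adjacent tissue and -1.46 to 0.75 between ΔIEC tissues. None of the differences given in this paragraph had passed its test with all libraries. Depth is unknown, and with 3 libraries a group single libraries set the spread.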
